A study of Mus musculus with 768 samples.

Results

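The 4 Ly6 genes Ly6a, Ly6c1, Ly6c2 and Ly6e were followed in single natural killer (NK) cells that had infiltrated MTAP1A tumors. They were taken by symbol from the 24490 gene entries deposited for every well, and each has 1 entry. MTAP1A is a methylcholanthrene-induced fibrosarcoma that lacks Tap1, which loads peptides for MHC class I. It was grown in male C57BL/6 mice of 8 to 12 weeks, which were either wild type (WT) or PD-1-/-, in which all cells of the mouse carry a partial deletion of the gene Pdcd1 that takes away some of its exons. Tumors of 3 mice per genotype were pooled, and viable cells gated as NK1.1+, CD3- and GR1- were sorted one to a well, with 1 plate for each genotype. SMART-SEQ2, which reads full-length transcripts and adds no molecular identifiers, was then run on each well. Of 768 wells, the 726 with 1000 to 3500 detected genes were kept, of which 360 were WT and the rest PD-1-/- cells. Each genotype was thus 1 pool on 1 plate, and a difference between genotypes cannot be told apart from one between plates. No test between genotypes was possible, and no value has a replicate error.

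Ly6 proteins are small surface proteins with a three-finger fold that are held in the outer membrane by a glycosylphosphatidylinositol (GPI) anchor. Many of their genes lie in a cluster on mouse chromosome 15. Ly6a encodes Sca-1, a marker of blood stem cells and activated lymphocytes whose transcript is induced by interferons. Ly6c1 and Ly6c2 encode the antigen Ly6C, found on monocytes and on subsets of T and NK cells. Ly6e encodes a broadly made member known for its effects on virus entry. Antibodies to GR1 bind Ly6G and also Ly6C, so that the gate used for the sort touches a protein of the family. What this gate did to the share of cells with Ly6c2 was not tested.

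The members share sequence, and Ly6c1 and Ly6c2 do so most. In the GENCODE vM21 annotation of GRCm38, Ly6e lies at chr15:74955051-74959905 on the plus strand, and Ly6a at chr15:74994877-74998031, Ly6c1 at chr15:75044018-75048830 and Ly6c2 at chr15:75108158-75111970 on the minus strand. All 4 fall within 156920 bases. The coding sequences of Ly6c1 and Ly6c2 are both 396 bases long and were identical at 387 positions, or 97.7%. The first 280 coding bases of Ly6c2 are shown beside the aligned bases of Ly6c1 and Ly6a, because reads of these genes can be told apart only where they differ. Capitals mark bases that differ from Ly6c2.
Ly6c2: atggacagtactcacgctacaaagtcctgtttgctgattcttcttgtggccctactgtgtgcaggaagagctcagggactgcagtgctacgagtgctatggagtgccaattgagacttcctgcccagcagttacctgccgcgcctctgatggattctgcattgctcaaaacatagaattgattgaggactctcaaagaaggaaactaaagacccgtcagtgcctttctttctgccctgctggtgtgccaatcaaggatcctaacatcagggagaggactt
Ly6c1: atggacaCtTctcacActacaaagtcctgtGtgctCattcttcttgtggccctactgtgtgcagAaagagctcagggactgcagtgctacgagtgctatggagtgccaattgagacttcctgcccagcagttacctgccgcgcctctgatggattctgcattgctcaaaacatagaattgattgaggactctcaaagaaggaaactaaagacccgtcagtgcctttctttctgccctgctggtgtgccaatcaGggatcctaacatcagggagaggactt
Ly6a: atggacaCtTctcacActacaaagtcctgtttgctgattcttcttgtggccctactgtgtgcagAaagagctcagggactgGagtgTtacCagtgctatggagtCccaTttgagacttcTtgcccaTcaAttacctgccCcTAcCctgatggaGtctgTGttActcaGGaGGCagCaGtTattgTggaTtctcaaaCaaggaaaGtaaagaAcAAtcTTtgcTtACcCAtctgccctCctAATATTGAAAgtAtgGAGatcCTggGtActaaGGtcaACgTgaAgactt
In this stretch Ly6c1 differed from Ly6c2 at 7 positions, and the alignment of Ly6a and Ly6c2 had 67 differing columns, gaps included. The bases are spliced coding sequence, spanning chr15:75108659-75111667 for Ly6c2, chr15:75045518-75048511 for Ly6c1 and chr15:74995378-74997604 for Ly6a. The longest run of identical bases between the main transcripts was 52 for Ly6a and Ly6c2 and 48 for Ly6a and Ly6c1. Of all windows of 50 bases in the Ly6c1 transcript, 31.7% also occurred in Ly6c2, against 0.39% of the windows of Ly6a. Ly6e stood apart, with a coding identity of 54.4% to Ly6a, 51.04% to Ly6c1 and 51.3% to Ly6c2, and no run over 11 bases in common with any of them. How the authors assigned reads that match more than one gene is not given in the sources used here, so that Ly6c1 and Ly6c2 values are uncertain where they could be split, and Ly6a values less so.

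A transcript counted as detected where its RPKM, reads per kilobase scaled to the reads of the cell, was above 0. Shares carry exact binomial (Clopper-Pearson) 95% intervals that cover counting error only. Low RPKM values of a gene were whole multiples of 1 step, the worth of 1 read, and this gave back read numbers. A kept WT cell had 1215 to 469756 such reads (median 295954), and a kept PD-1-/- cell 1729 to 535717 (median 311220). The NK markers Ncr1, Klrb1c, Klrk1, Klre1, Tyrobp and Fcer1g were each found in 90.8% to 100% of cells of either genotype, while the neutrophil genes S100a8, S100a9 and Csf3r were each found in at most 1.11%. CD3 was excluded by the sort, but reads of at least 1 of its chains (Cd3d, Cd3e, Cd3g) were present in 65 WT and 83 PD-1-/- cells. Pdcd1, the gene with the partial deletion, had reads in 9 WT and 47 PD-1-/- cells, and since values per gene do not show which exons were read, Pdcd1 gave no check of the genotypes. Plate rows A and B of the WT plate, with 38 kept cells, stood apart from its other rows: they held all 9 WT cells with Pdcd1 and 14 of the 28 with Cxcr6. Results that rest on these rows are given with and without them.

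Ly6e was found in nearly every cell and was the most even member. The share of cells with Ly6e was 96.7% (94.2 to 98.3) on the WT plate and 95.1% (92.3 to 97.1) on the PD-1-/- plate. Where the transcript was present, RPKM ran from 1.43 to 6671 in WT cells, with a median of 1303 and quartiles of 749 and 1948. In PD-1-/- cells it ran from 1.28 to 5738, with a median of 1208 and quartiles of 677 and 1858. Both distributions overlapped throughout. At least 100 read equivalents were present in 93.1% and 92.8% of these cells, and the highest 36 WT and 37 PD-1-/- cells held 22.9% and 25.96% of the summed RPKM. The 12 WT and 18 PD-1-/- cells without Ly6e had a median of 1623 and 1562 detected genes, fewer than the 2275 and 2305 of cells with it, although their recovered reads had medians of 311224 and 284014.

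By median RPKM, Ly6c2 was the most abundant member in the cells that had it, but most cells had none. Ly6c2 reads were present in 25.3% (20.9 to 30.1) of WT cells, 91 in number, while the share was 37.4% (32.5 to 42.6) for PD-1-/-. Among WT cells with Ly6c2, RPKM ran from 3.42 to 10174 with a median of 1383, and among PD-1-/- cells from 3.00 to 12657 with a median of 2318. A cell tended to have very many reads of Ly6c2 or next to none. In WT cells, 9 had a single read, 3 had 2 to 9, 13 had 10 to 99 and 66 had 100 or more. In PD-1-/- cells, 20 had a single read, 3 had 2 to 9 and 6 had 10 to 99, and the remaining 78.8% of the cells with Ly6c2 had 100 or more. The cells with 1 read had no lack of depth on the PD-1-/- plate, where their recovered reads had a median of 287542.

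Ly6a was rarer than Ly6c2, and its reads were spread over all classes in WT cells while most PD-1-/- cells with it had many. Only 46 WT cells had it, a share of 12.8% (9.51 to 16.7), and 83 PD-1-/- cells did, a share of 22.7% (18.5 to 27.3). Its RPKM ran from 3.17 to 3276 with a median of 333.7 in WT cells with the transcript, and from 2.08 to 4410 with a median of 618 in PD-1-/- cells. A single read was found in 7 WT and 10 PD-1-/- cells, 2 to 9 reads in 5 and 2, 10 to 99 reads in 17 and 16, and 100 or more in 17 and 55. The 7 WT cells with 1 read were mostly shallow, with a median of 5533 recovered reads, and the 10 PD-1-/- cells were not, with a median of 317083. As for Ly6c2, the high end carried the sum: the 36 highest WT cells held 97.5% of all Ly6a RPKM and 76.9% of all Ly6c2 RPKM, and the 37 highest PD-1-/- cells 80.2% and 58.2%. Sarle's bimodality coefficient of log2(RPKM + 1) was 0.96 for Ly6a and 0.95 for Ly6c2 in WT cells, and 0.95 and 0.94 in PD-1-/- cells. It was also 0.80 and 0.81 for Ly6e, of which nearly all cells had many reads, so that the coefficient alone does not show a gap.

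Ly6c1 was found at trace levels. Just 21 WT cells (5.83%, 3.65 to 8.78) and 33 PD-1-/- cells (9.02%, 6.29 to 12.4) had any. Of these 54 cells, 40 had 1 read equivalent, 13 had 2 and 1 had 13. The median RPKM in cells with the transcript was 4.58 in WT and 3.63 in PD-1-/- cells. Its highest value, 1568 RPKM in a WT cell, was 2 read equivalents in a well of 1355 recovered reads, and this well alone held 75.6% of the summed WT RPKM.

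**Figure D1:**
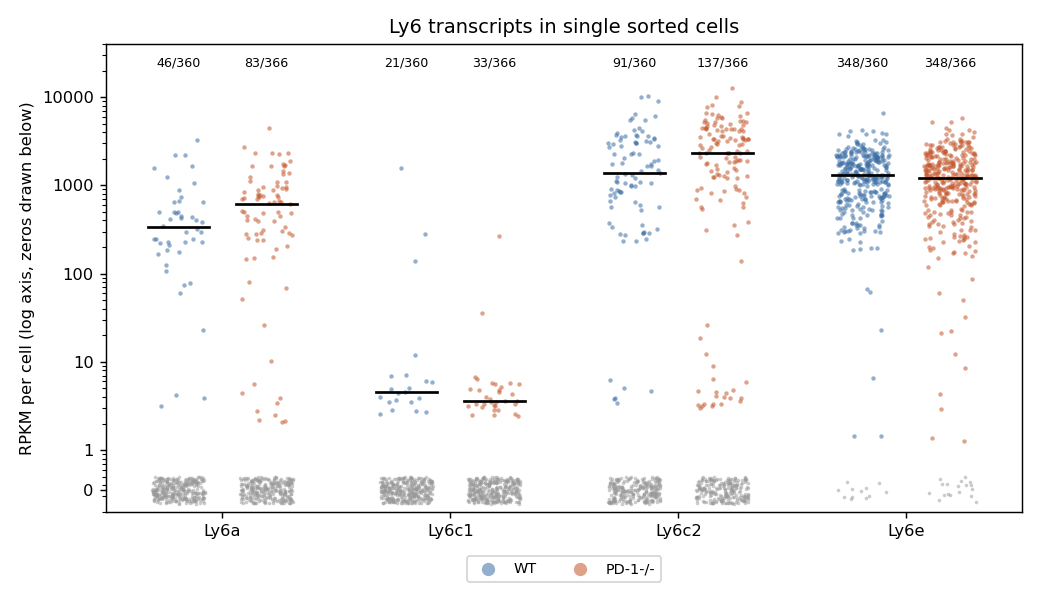
RPKM of each Ly6 gene in single cells, on a log axis with zeros drawn in grey below it, for the kept WT (blue) and PD-1-/- (orange) cells. Bars mark the median of the cells with the transcript and the fractions give how many cells had it. Points are spread sideways only for view. Ly6e filled nearly every cell, Ly6a was more spread than Ly6c2, and Ly6c1 mostly stayed near 1 read. For Ly6c2, 3 cells on each plate had 2 to 9 reads, fewer than the 9 WT and 20 PD-1-/- cells with 1 read. A further 13 WT and 6 PD-1-/- cells had 10 to 99 reads of Ly6c2, and the bulk had more.

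**Figure D2:**
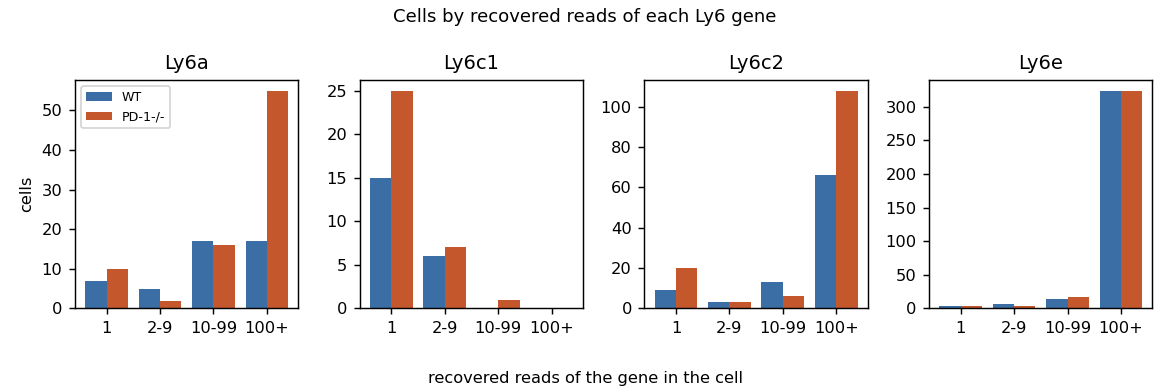
Number of cells by recovered reads of each Ly6 gene, WT in blue and PD-1-/- in orange, for cells with the transcript. The class of 100 or more reads held most Ly6c2 cells. Next came 1 read in PD-1-/- cells (20 cells), but 10 to 99 reads (13 cells) before 1 read (9 cells) in WT cells. All but 1 of the 54 Ly6c1 cells had 1 or 2 reads. The vertical axes differ between panels.

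Ly6c1 reads came almost only from cells with Ly6c2. Of the 54 cells with Ly6c1, 53 also had Ly6c2. Among the 498 cells of both genotypes without Ly6c2, 1 had Ly6c1, 0.201% (0.005 to 1.11). The share with Ly6c1 was 7.41% (2.06 to 17.9) in the 54 cells with 1 to 99 reads of Ly6c2, 18.7% (12.2 to 26.7) in cells with at least 100 but under 1000 reads, and 50.98% (36.6 to 65.2) in the 51 cells with 1000 or more. In all cells with Ly6c2 there were 0.56 read equivalents of Ly6c1 for every 1000 reads of Ly6c2, 0.65 in WT and 0.52 in PD-1-/- cells. The median of Ly6c2 was 963 reads in cells with Ly6c1 and 310 in the other cells with Ly6c2. In the aligned sequences shown for these genes, Ly6c1 and Ly6c2 are nearly the same, and the part of shared sequence in this relation was not tested.

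Ly6a was more frequent in cells with Ly6c2 than in cells without it, but many cells had only 1 of these genes. Of WT cells with Ly6c2, 23 of 91 had Ly6a, 25.3% (16.7 to 35.5), against 8.55% (5.50 to 12.6) of the cells without Ly6c2. Of PD-1-/- cells with Ly6c2, 41 had Ly6a, 29.9% (22.4 to 38.3), against 18.3% (13.5 to 23.97) of those without. The intervals were apart in WT cells and overlapped in PD-1-/- cells. The difference of 16.7 percentage points in WT cells was 7.13 without plate rows A and B, and without cells with CD3 reads it was 6.36 in WT and 2.62, from 11.6, in PD-1-/- cells. At 10 reads or more of each gene, 13 WT cells had both, 21 had Ly6a alone, 66 had Ly6c2 alone and 260 had neither. In PD-1-/- cells, 36 had both, 35 had Ly6a alone and 78 had Ly6c2 alone, which left 59.3% with neither. At this limit, chosen after seeing the data, the share with Ly6a was 16.5% in WT cells with Ly6c2 and 7.47% in those without, and 31.6% and 13.9% in PD-1-/- cells. Over the cells with both, Spearman's rho between the levels was 0.30 (13 cells) and 0.31 (36 cells), a description of cells of 1 library each.

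All cells with Ly6a had Ly6e, 46 of 46 WT and 83 of 83 PD-1-/- cells, but so did most cells without Ly6a. Lacking Ly6a, cells on the WT plate still had Ly6e in 96.2% (93.4 to 98.01). On the PD-1-/- plate, that share was 93.6% (90.1 to 96.2). The intervals for cells with Ly6a, 92.3 to 100 (WT) and 95.7 to 100 (PD-1-/-), overlapped these on both plates. Where a cell had at least 10 reads of Ly6a, its Ly6e level was higher, with a median of 1983 RPKM against 1195 in the other WT cells, and of 1783 against 984 in PD-1-/- cells. For Ly6c2 the same medians of Ly6e were 1349 and 1228 RPKM in WT cells, and 1197 and 1137 in PD-1-/- cells. Over all kept cells, rho of Ly6e with Ly6a was 0.24 in WT and 0.36 in PD-1-/- cells, and with Ly6c2 it was 0.04 and -0.05. Ly6a and Ly6e each also correlated with the number of detected genes, with rho of 0.29 and 0.29 in WT and 0.22 and 0.31 in PD-1-/- cells. By number of members, 66.9% of WT cells had 1, 21.4% had 2, 8.06% had 3, 6 cells had all 4 and 7 had none. In PD-1-/- cells, 50.3% had 1, 31.1% had 2, 13.9% had 3, 9 cells had all 4 and 8 had none. Ly6e was the sole member in 66.4% (61.3 to 71.3) of the WT plate's cells, against 48.9% (43.7 to 54.2) on the PD-1-/- plate.

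**Figure D3:**
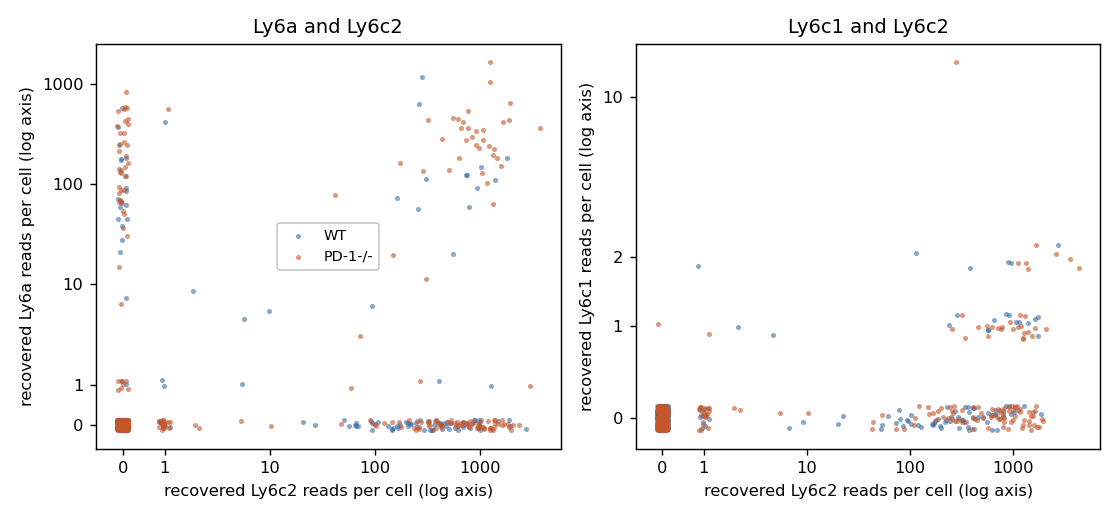
Recovered reads per cell of Ly6a (left) and Ly6c1 (right) against those of Ly6c2, on log axes with zeros drawn at the lower edge and points jittered, WT in blue and PD-1-/- in orange. Ly6a was high both in cells with and without Ly6c2, whereas 53 of the 54 cells with Ly6c1 had Ly6c2.

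Ly6a and Ly6c2 were found in more cells of the PD-1-/- plate, Ly6e was close to the same, and the mean of Ly6c1 rested on single wells. The PD-1-/- share was 9.90 percentage points higher for Ly6a and 12.2 higher for Ly6c2, and for both the intervals of the genotypes were apart. The difference was 3.18 points for Ly6c1 and -1.58 points for Ly6e, with overlapping intervals. Of 12030 genes whose mean reached 1 RPKM in a genotype, 3.57% had a share that was 5 points or more higher in PD-1-/- cells, and 4.3% one that was as much lower. By that rule 2 of the 4 members were higher. A difference at least as high as that of Ly6a was found for 0.357% of these genes, and one at least as high as that of Ly6c2 for 0.125%. For how many of all genes the intervals of the genotypes were apart was not counted. The mean went from 70.7 to 171.6 RPKM for Ly6a, a log2 ratio (pseudocount of 1) of 1.27, and from 535 to 1004 RPKM for Ly6c2, a log2 ratio of 0.91. For Ly6e the means were 1369 and 1316 RPKM, a log2 ratio of -0.06. Past 2-fold, Ly6a was 1 of the 4.71% of genes that were higher in PD-1-/- cells, and Ly6c1 fell among the 7.34% that were lower. The median log2 ratio of these genes was -0.03.

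More cells with the transcript and more of it per cell both went into the difference. For Ly6a, the share was 1.77 times and the mean of the cells with the transcript 1.37 times that of WT cells, 757 against 553 RPKM. For Ly6c2, the factors were 1.48 and 1.27, with 2681 against 2115 RPKM. When at least 10 reads were asked for, the Ly6a share was 9.44% (6.63 to 12.9) for WT and 19.4% (15.5 to 23.8) for PD-1-/-, and the Ly6c2 share 21.9% (17.8 to 26.6) and 31.1% (26.4 to 36.2). At this limit the Ly6c2 intervals just overlapped. The mean of Ly6c1, 5.76 RPKM in WT and 1.18 RPKM in PD-1-/- cells with a log2 ratio of -1.63, turned to 0.21 without cells of fewer than 100000 recovered reads, also chosen after seeing the data. With all kept cells, the Ly6c1 mean and the Ly6c1 share thus differed in opposite directions.

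The difference between genotypes was not the same in all plate rows. In rows A and B, 20 of 38 WT cells had Ly6c2, 52.6% (35.8 to 69.02), against 13 of 45 PD-1-/- cells, 28.9% (16.4 to 44.3), and the log2 ratio was -0.84. Ly6a was present there in 14 WT cells, 36.8% (21.8 to 54.01), against 12 PD-1-/- cells, 26.7% (14.6 to 41.9), with a log2 ratio of 0.02. In rows C to P, the WT share of Ly6c2 was 22.05% (17.6 to 26.98) and the PD-1-/- share 38.6% (33.3 to 44.2), and the shares of Ly6a were 9.94% (6.90 to 13.7) and 22.1% (17.7 to 27.1). The log2 ratios in these rows were 1.30 for Ly6c2 and 1.59 for Ly6a. Row A of the WT plate was the highest of its 16 rows for both genes, with 52.9% for Ly6a and 70.6% for Ly6c2, against medians over rows of 13.1% and 23.9%. The PD-1-/- share was the higher one in 12 of 16 rows for Ly6c2 and in 11 of 16 for Ly6a. What set rows A and B of the WT plate apart is not given in the sources used here.

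**Figure D4:**
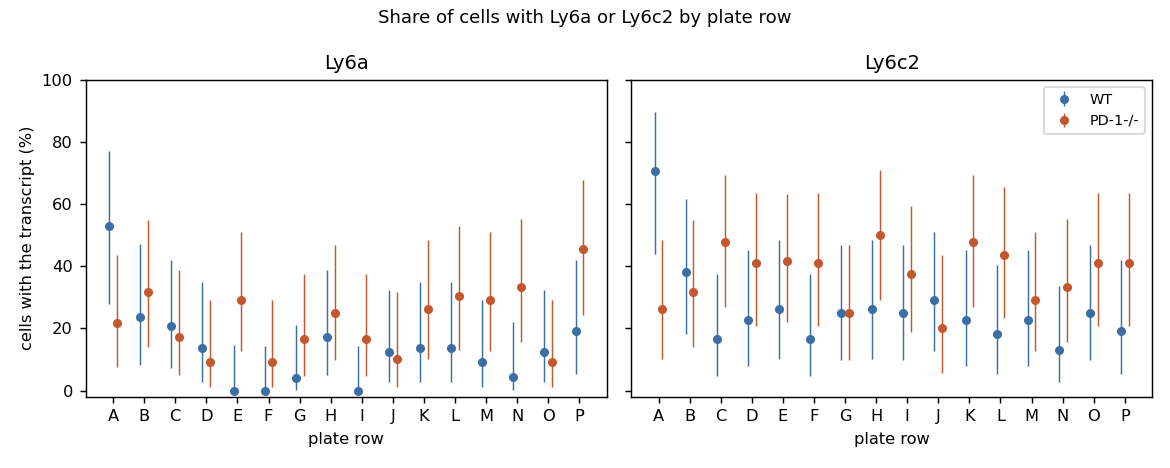
Share of kept cells with Ly6a (left) and Ly6c2 (right) in each of the 16 plate rows, WT in blue and PD-1-/- in orange, with exact 95% intervals as bars. Row A of the WT plate lay highest for both genes, at 52.9% and 70.6%, and the PD-1-/- share was higher in 11 and 12 of the 16 rows.

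Ly6a and Ly6c2 were more frequent in cells with reads of Cxcr6, Itga1 or Pdcd1 than in cells without them. Of 24 genes or gene groups by which cells were split, 6 had exact intervals apart in the same direction in both genotypes for at least 1 member, and 5 of these are described here. Cxcr6 encodes a chemokine receptor and Itga1 the integrin chain CD49a, while Eomes encodes a transcription factor of mature NK cells. Of WT cells with Cxcr6, 21 of 28 had Ly6c2, 75% (55.1 to 89.3), against 21.1% (16.8 to 25.9) without Cxcr6. Only 10 of these 28 cells had no CD3 reads. Of PD-1-/- cells with Cxcr6, 53 of 77 had Ly6c2, 68.8% (57.3 to 78.9), against 29.1% (23.9 to 34.7) without it. Of all 8576 genes found in at least 5% of kept cells, 0.385% were higher in cells with Cxcr6 by this rule. Cells with Cxcr6 had Ly6a in 46.4% (27.5 to 66.1) on the WT and 40.3% (29.2 to 52.1) on the PD-1-/- plate, against 9.94% (6.94 to 13.7) and 17.99% (13.7 to 22.9) without it. Ly6c1 followed at its trace level, with 21.4% against 4.52% in WT and 22.1% against 5.54% in PD-1-/- cells.

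Itga1 split the cells in the same way. On the WT plate, 26 of 48 cells with Itga1 had Ly6c2, 54.2% (39.2 to 68.6), against 20.8% (16.5 to 25.8) without. On the PD-1-/- plate, 59 of 90 did, 65.6% (54.8 to 75.3), against 28.3% (23.03 to 33.97) without. For Ly6a, these shares were 29.2% and 10.3% in WT cells, and 43.3% and 15.9% in PD-1-/- cells. By this rule 0.361% of genes were higher in cells with Itga1. Cells with Itga1 also had more detected genes, with medians of 2596 against 2244 in WT and 2404 against 2197 in PD-1-/- cells, and the part of this in the result was not tested. The same holds for Pdcd1, with medians of 2888 against 2254 in WT and 2371 against 2232 in PD-1-/- cells. Pdcd1 split the cells alike, but only 1 of the 9 WT cells with Pdcd1 had no CD3 reads. Of the 9 WT cells with Pdcd1, all 9 had Ly6c2 and 7 had Ly6a, and of the 47 PD-1-/- cells, 29 had Ly6c2, 61.7% (46.4 to 75.5), and 23 had Ly6a, 48.9% (34.1 to 63.9). PD-1-/- cells without Pdcd1 had Ly6c2 in 33.9% (28.7 to 39.3) and Ly6a in 18.8% (14.7 to 23.5), and 0.303% of genes were higher in cells with Pdcd1.

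Eomes went the other way for Ly6c2. Cells with Eomes had Ly6c2 in 18.8% (13.9 to 24.6) on the WT plate against 35.8% (27.8 to 44.4) of cells without it, and in 22.8% (17.2 to 29.2) against 55.5% (47.5 to 63.2) on the PD-1-/- plate. By this rule 0.105% of genes were lower in cells with Eomes.

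Reads of CD3 chains came with Ly6c2. It was found in 32 of 65 WT cells with CD3 reads, 49.2% (36.6 to 61.9), against 20% (15.6 to 25.03) without. On the PD-1-/- plate it was found in 49 of 83, 59.04% (47.7 to 69.7), against 31.1% (25.7 to 36.8) without. By this rule 0.105% of genes were higher in cells with CD3 reads, the CD3 genes included. Ly6a was found in 24.6% (14.8 to 36.9) of WT cells with CD3 reads against 10.2% (6.97 to 14.2) without, with intervals apart. In PD-1-/- cells these Ly6a shares were 32.5% (22.6 to 43.7) and 19.8% (15.3 to 24.9), with overlapping intervals. The 10 genes of the T cell list summed to a mean of 791 RPKM in WT cells with at least 10 reads of Ly6c2 and 95.2 RPKM in the others, and to 989 and 132.4 RPKM in PD-1-/- cells. This sum is mostly CD3: over all kept WT cells, Cd3d, Cd3e and Cd3g had means of 81.7, 46.2 and 101.8 RPKM. On the PD-1-/- plate these means were 100.9, 82.8 and 193.9 RPKM. No other gene of the list had a mean above 7.09 RPKM on either plate, so that the sum largely repeats the split by CD3 reads. At least 1 of the 10 genes was present in 37.97% and 17.8% of WT, and in 45.6% and 18.3% of PD-1-/- cells. Of the 6 NK markers, a mean of 5.7 was present in cells with at least 10 reads of Ly6c2 and of 5.8 in the others, in both genotypes. Of the 6 myeloid genes, the chemokine receptor gene Ccr2 was found in 80.6% of cells on the WT plate (mean 279.9 RPKM) and 70.5% on the PD-1-/- plate (mean 288.7 RPKM), and each of the other 5 in at most 6.39%. The sum of all 6, which is mostly Ccr2, came to a mean of 223.4 RPKM in WT cells with as many reads of Ly6c2 and 347.1 RPKM in the others, and to 136.4 and 380.8 RPKM in PD-1-/- cells. Without cells that had CD3 reads, Ly6a was present in 10.2% (6.97 to 14.2) of WT against 19.8% (15.3 to 24.9) of PD-1-/- cells, and Ly6c2 in 20% (15.6 to 25.03) against 31.1% (25.7 to 36.8). The part of these cells in the other splits was not tested beyond leaving them out.

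On the WT plate, these splits leaned on few cells. Without rows A and B, the WT intervals overlapped for CD3, Itga1 and Eomes with Ly6c2, for Cxcr6 and Itga1 with Ly6a and for Cxcr6 with Ly6c1, and none of the remaining WT cells had Pdcd1. The split of Ly6c2 by Cxcr6 stayed apart in WT cells, with 57.1% (28.9 to 82.3) of 14 cells against 20.5% (16.1 to 25.4) without Cxcr6. On the PD-1-/- plate all of these splits stayed apart without rows A and B. Without cells with CD3 reads, the WT intervals overlapped for every split but that of Ly6c2 by Cxcr6, and on the PD-1-/- plate those of Ly6a by Cxcr6 and of Ly6c2 by Pdcd1 overlapped while the others stayed apart. These alternatives were chosen after seeing the data.

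**Figure D5:**
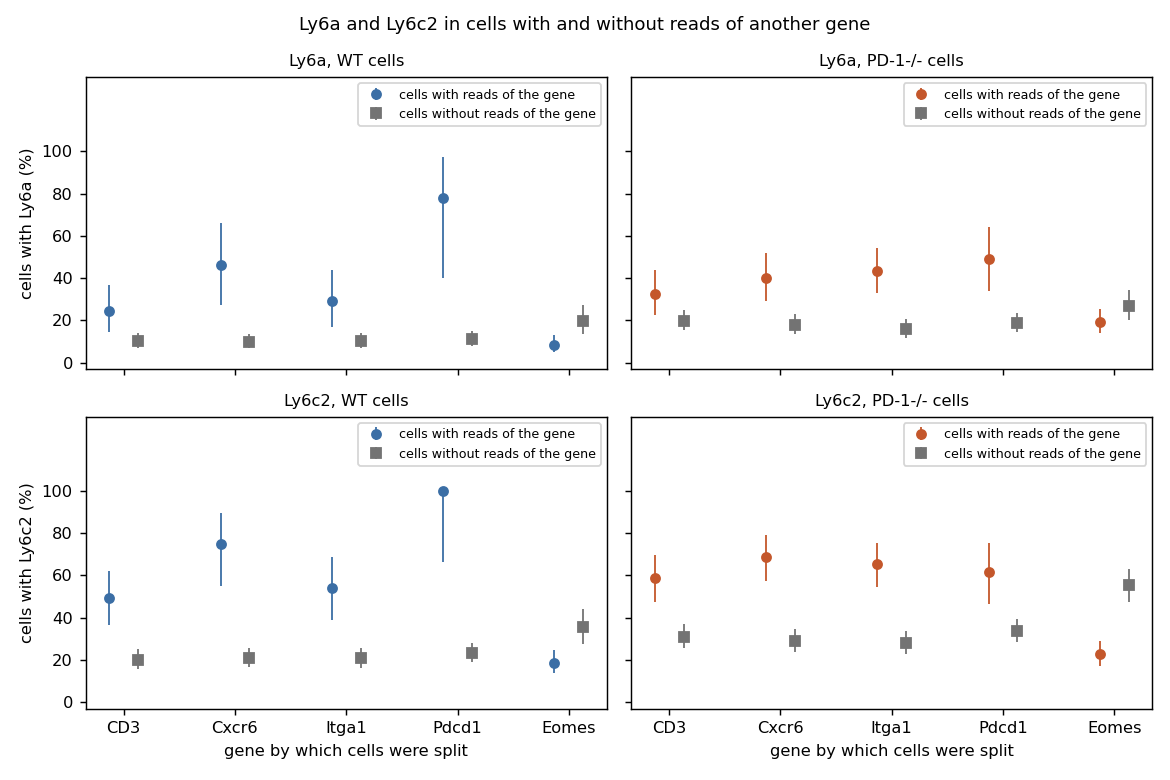
Share of cells with Ly6a (top) or Ly6c2 (bottom) among cells with reads of another gene (colored circles) and without them (grey squares), for WT (left) and PD-1-/- (right) cells, with exact 95% intervals as bars. CD3 stands for a read of Cd3d, Cd3e or Cd3g. Cells with Cxcr6 had Ly6c2 in 75% (WT) and 68.8% (PD-1-/-), and cells with Eomes in 18.8% and 22.8%.

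By the intervals of their shares, the remaining splits differed on 1 plate alone or not at all. In WT cells, Ly6a was more frequent with Gzmc, which encodes granzyme C, at 25.9% (18.2 to 34.8) against 6.56% (3.79 to 10.4), while in PD-1-/- cells the intervals of 33.3% (23.4 to 44.5) and 19.5% (15.04 to 24.6) overlapped. Cells with Gzmc had more detected genes, with medians of 2536 against 2188 in WT and 2499 against 2154 in PD-1-/- cells, and the part of this was not tested. In PD-1-/- cells, Ly6c2 was more frequent with Klrg1, an inhibitory receptor of mature NK cells, at 61.7% (50.3 to 72.3) against 30.5% (25.2 to 36.2), and Ly6a was less frequent with S1pr5, a receptor for egress, at 9.68% (4.52 to 17.6) against 27.1% (21.9 to 32.8). In WT cells the intervals of both overlapped, with 35.7% against 23.4% for Ly6c2 with Klrg1 and 6.17% against 14.7% for Ly6a with S1pr5. Other genes used to split cells also had intervals apart on 1 plate alone, and those given here are examples. For how many of all genes the intervals were apart on 1 plate in these splits was not counted. These plates were not tested against each other. The mean of Ly6e was 2064 RPKM in WT cells with Cxcr6 and 1310 RPKM without, and 1803 and 1186 RPKM in PD-1-/- cells. It was also higher with Itga1, at 1807 against 1301 RPKM in WT and 1690.5 against 1194 RPKM in PD-1-/- cells. With S1pr5 it was lower, at 1085 against 1451 RPKM in WT and 821.7 against 1484 RPKM in PD-1-/- cells. Cells with S1pr5 had fewer detected genes, with medians of 2247 against 2278 in WT and 2074 against 2330 in PD-1-/- cells. The part of this in the Ly6a and Ly6e values was not tested.

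The genes most like Ly6c2 and Ly6e on the WT plate had a similar rho on both plates, and those most like Ly6c1 did not. For Ly6c2 this did not hold for all genes chosen on the PD-1-/- plate. Over WT cells and 6393 genes found in at least 10% of cells of both genotypes, the 3 genes with the highest Spearman's rho to Ly6c2 were Cd3g (0.36), Cd3d (0.29) and Itga1 (0.28), and on the PD-1-/- plate their rho was 0.32, 0.27 and 0.35, the last the highest of all. For Ly6e they were Ltb, which encodes lymphotoxin beta, at 0.38, Cd52 at 0.30 and Tmsb10 at 0.27, with 0.36, 0.22 and 0.26 on the PD-1-/- plate. For Ly6a they were Gzmc at 0.32, Inpp4b at 0.30 and Litaf at 0.30, with 0.18, 0.23 and 0.11 on the other plate. Genes chosen on the PD-1-/- plate were named after their values were seen. For Ly6a the 3 highest there were S100a4 (0.33), Amica1 (0.30) and Itga1 (0.30), with 0.29, 0.26 and 0.18 on the WT plate. For Ly6c2 they were Itga1 (0.35), Ccl5 (0.34) and Klrg1 (0.33), with 0.28, 0.07 and 0.10 on the WT plate. For Ly6c1, 3110040N11Rik at 0.22 and Atxn10 at 0.21 had -0.01 and -0.08 on the other plate, and S1pr5 had 0.19 and 0.09. The points are cells of 1 library each that share its depth, and these values describe them.

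Few other genes of the family were measurable. Of all 12030 genes, 4.71% were 2-fold or more higher and 7.34% as much lower in PD-1-/- cells, against which the counts of the lists are to be read. Of 33 further genes of the Ly6/uPAR superfamily, 29 had an entry, none reached 5% of kept cells and 18 were at 0 in all 726 cells, which allows a share of up to 0.413% for each. The most frequent, named after their values were seen, were Cd59a, which encodes a complement inhibitor, with 7 WT and 6 PD-1-/- cells, and Ly6g5b with 2 and 9. Only 4 reached a mean of 1 RPKM, each on 1 plate alone. These were Ly6g5b and Plaur on the PD-1-/- plate, and Lypd8 and Cd59a on the WT plate. By the 2-fold rule the first 2 were higher and the last 2 lower in PD-1-/- cells. Because each passed the mean limit only through the plate where it was high, these counts are no result about the family. Of 22 genes that build or attach the GPI anchor, 21 reached a mean of 1 RPKM in a genotype, none passed 2-fold in either direction, and the median log2 ratio was 0.01, with a range of -0.56 to 0.89. Of 20 interferon-response genes, all had such a mean, none was 2-fold higher in PD-1-/- cells and 5 were 2-fold lower, with a median log2 ratio of -0.19. The immunoproteasome gene Psmb8 had a log2 ratio of 0.11, while Isg15 had -1.08 and Ifit1 -1.66, each found in at most 6.11% of cells. The summed level of this list had a rho of 0.001 with Ly6a in WT and of 0.09 in PD-1-/- cells, and of 0.09 and 0.23 with Ly6e.

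Promoter sequences were at hand for Ly6c1 and Ly6c2, with 2 annotated starts each, in RefSeq on GRCm38.p6, from 250 bases before to 50 bases after the start. None of these 4 windows held the gamma-activated site TTCNNNGAA or the interferon-response form, GAAA repeated after any 2 bases, on either strand. Of 32851 promoters, 8.30% held the first and 3.44% the second.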

How the data were processed

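The authors made SMART-SEQ2 libraries of single sorted cells and deposited RPKM per gene entry and well. The submitters' processing notes name TopHat and Cufflinks and the builds mm9 and mm10, without saying which served for what. Read length and the handling of reads that match several genes are not given in the sources used here.

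Wells with 1000 to 3500 genes above 0 were kept, counting 14761 genes above 0 in at least 3 wells. Below the lower limit were 12 wells and above the upper limit 30. No further scaling was applied. From the steps of the RPKM values, whole reads were recovered for 9812 genes, and 99.5% of 693136 low values were whole within a relative tolerance of 0.0003. Ly6a and Ly6c2 gave whole reads. Ly6c1 was whole in 46 of 56 wells and Ly6e in 590 of 729, and their values are called read equivalents. The reason was not tested. These reads were used for depth, read classes and thinning. No count test was made, because each genotype is 1 pool on 1 plate.

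The log2 ratio of a gene sets its mean RPKM in kept PD-1-/- cells against that in kept WT cells (pseudocount 1). The 2-fold and 5-point limits are limits of size and no test. Genes were named as the members, the fixed lists, the genes used to split cells, and the 3 genes of highest rho on the WT plate. For Ly6a and Ly6c2, the 3 genes of highest rho on the PD-1-/- plate were added after their values were seen. Results for some genes are not reported here. The members and lists were chosen with earlier results of these data known. The alternatives changed the wells, the detection limit, the pseudocount, the scaling, the plate rows and the cells used. Scripts for reads and log2 ratios were tested on simulated data. Python 3.11.15, numpy 2.4.6, pandas 2.3.3, scipy 1.17.1, Biopython 1.88 and matplotlib 3.10.9 were used.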

Additional observations from a re-analysis of the deposited data

Results flagged for a closer look

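The 30 wells with more than 3500 detected genes entered no comparison, and 3 members were found in them in a larger share than the 10% that a count of 0 would allow, a limit that any gene present in many cells passes. Ly6e was found in all of them, 100%, Ly6a in 15, 50% (31.3 to 68.7), and Ly6c2 in 12, 40% (22.7 to 59.4). Ly6a was found in 6 of the 16 WT and 9 of the 14 PD-1-/- wells, and Ly6c2 in 5 and 7. Whether such wells held more than 1 cell is not known.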

How the results depend on the processing

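The PD-1-/- share of Ly6a and of Ly6c2 was above the WT share in 11 of 11 alternatives each, and their log2 ratios were above 0 in 12 of 12. These alternatives reuse largely the same cells of the same plates. Rows A and B alone, where the WT shares of both genes were the higher ones, were not among them. The log2 ratio of Ly6a went from 1.27 to 1.91 in wells with 1500 to 3000 genes, and that of Ly6c2 from 0.91 to 1.52 in rows I to P. For Ly6c1, the log2 ratio of -1.63 was 0.14 in wells with 1500 to 3000 genes, 0.077 without cells with CD3 reads, 0.16 after thinning to 100000 reads, 0.12 without the 5 highest cells of each plate, 0.21 without cells under 100000 recovered reads, -0.50 with a pseudocount of 10 and -2.24 without rows A and B. Ly6c1 shares were 1.11% of WT and 0.546% of PD-1-/- cells at 10 RPKM or more, 2.42% and 2.84% after thinning, and 0% and 0.273% at 10 reads or more. The Ly6c2 share was 20% of WT and 31.1% of PD-1-/- cells without CD3 reads, and in PD-1-/- cells 32.2% at 10 RPKM and 31.1% at 10 reads. At 10 reads the WT share was 9.44% for Ly6a and 93.9% for Ly6e. The difference in Ly6a between cells with and without Ly6c2 was 5.85 points in rows I to P, 7.13 without rows A and B and 6.36 without CD3 reads in WT cells, and 2.62 without CD3 reads in PD-1-/- cells. That in Ly6c1 was 4.71 and 0.444 points at 10 RPKM, 10.8 and 7.33 after thinning, and 0 and 0.877 at 10 reads, in WT and PD-1-/- cells. Causes were not tested. Of the 54 cells with Ly6c1, 40 rest on 1 read equivalent. The limits of 10 reads and of 100000 recovered reads, and all alternatives for the splits by other genes, were chosen after seeing the data. Without rows A and B no WT cell had Pdcd1, so that this split has no WT value. No paired analysis was possible because each genotype has 1 pool on 1 plate and no result comes from a test.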

Other observations

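Of the 12 wells with fewer than 1000 detected genes, none had Ly6a, Ly6c1 or Ly6c2, which allows a share of up to 25% for each, and 3, all on the WT plate, had Ly6e.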
